A study of Mus musculus with 6 samples.

Results

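Netrins and their receptors were followed in messenger RNA of the adult mouse hippocampus after loss of Dicer1 from forebrain excitatory neurons. The group holds 10 genes out of 25896 gene symbols in the files: the 4 UNC5 receptor genes Unc5a, Unc5b, Unc5c and Unc5d, the receptor genes Dcc, Neo1 and Dscam, the secreted ligand Ntn1 and the membrane-anchored netrin-G genes Ntng1 and Ntng2. They were taken by name. For each, the transcript whose raw count averaged highest over all 6 libraries stood for the gene, a choice that does not use genotype. The family counts as selected on the genotype difference of Unc5a in these same libraries, which was known when it was assembled, so the values and the test of Unc5a are a description and no independent evidence.

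Dicer1-ifKO libraries (DICER1-ifKO in the labels) came from male C57BL/6 mice that carried Dicer1 flox/flox together with CaMKIIa-creERT2, a Cre recombinase that tamoxifen activates and that the CaMKIIa promoter restricts to excitatory neurons of the forebrain. WT libraries came from male C57BL/6 mice with the same floxed alleles and no Cre transgene. Adult mice of both genotypes, given as 3 months old, received tamoxifen, and tissue was taken 3 weeks afterwards. There were 3 libraries of each genotype, and every library pooled hippocampal RNA from 3 mice. The effects of losing Dicer1 and of the Cre transgene itself cannot be told apart in this design, and the tissue was whole hippocampus, so neurons without Cre, glia and vessels contributed RNA too.

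Netrins are laminin-related cues that steer growing axons. Netrin-1 attracts axons through DCC and its relative neogenin, repels them through UNC5 receptors alone or with DCC, and also binds DSCAM. Netrin-G proteins are tethered to the membrane, bind the leucine-rich repeat proteins NGL-1 and NGL-2 in place of DCC or UNC5, and organise synapses on defined dendritic segments. In the adult hippocampus netrin-1 and DCC are found at excitatory synapses, where they are known to take part in synaptic plasticity.

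Counts over the representative transcripts summed to 15409074 to 20677845 in Dicer1-ifKO libraries and to 11832794 to 16125481 in WT libraries. All 10 genes passed the filter on low counts. Dicer1 had 58.2, 62.9 and 58.0 CPM (TMM-scaled counts relative to library size, the level used throughout) in Dicer1-ifKO libraries, against 55.6, 62.0 and 55.8 CPM in WT libraries, but its single transcript in the files covers the whole gene and does not check the deletion. WT replicate 1, the shallowest library, stood apart on the first principal component (26.6, against -10.1 to -1.50 in the others). Its levels relative to each gene's mean over the 6 libraries fell with transcript length. Spearman's correlation was -0.27, against -0.11 to 0.14 in the others.

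Scaled to transcript length, Unc5a was the most abundant of the 10 genes and Ntn1 the least in both genotypes. Unc5a averaged 35.9 ± 3.34 CPM per kb in Dicer1-ifKO libraries and 28.5 ± 1.15 CPM per kb in WT libraries (SD, n = 3 each). Ntng2 followed at 22.7 ± 1.07 CPM per kb in Dicer1-ifKO and 20.9 ± 2.54 in WT (SD, n = 3 each). Its representative transcript is annotated as a target of nonsense-mediated decay. Ntng1, at 14.6 ± 1.19 in Dicer1-ifKO and 13.1 ± 0.279 in WT, and Neo1, at 13.7 ± 0.632 in Dicer1-ifKO and 12.4 ± 0.876 in WT, overlapped each other in both genotypes.

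Dscam lay at 8.14 ± 0.215 CPM per kb in Dicer1-ifKO and 7.29 ± 0.854 in WT, and overlapped Unc5c in WT only. Unc5c, at 5.82 ± 0.539 in Dicer1-ifKO and 5.87 ± 0.605 in WT, and Dcc, at 5.32 ± 0.482 in Dicer1-ifKO and 5.05 ± 0.333 in WT, were not separated beyond their spread. Unc5b had 3.58 ± 0.227 CPM per kb in Dicer1-ifKO and 3.43 ± 0.359 in WT. Unc5d had 2.92 ± 0.113 in Dicer1-ifKO and 2.77 ± 0.151 in WT, and Ntn1 1.62 ± 0.156 in Dicer1-ifKO and 1.48 ± 0.220 in WT. The mRNA of the ligand netrin-1 was thus below that of every receptor gene and both netrin-G genes per unit length. Lengths are those of GENCODE M21 transcripts with the same or the nearest ends, and several GENCODE transcripts share the ends of the Ntng1 (7) and Unc5a (2) transcripts, so these levels carry an error of length that the SD does not show.

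**Figure D1:**
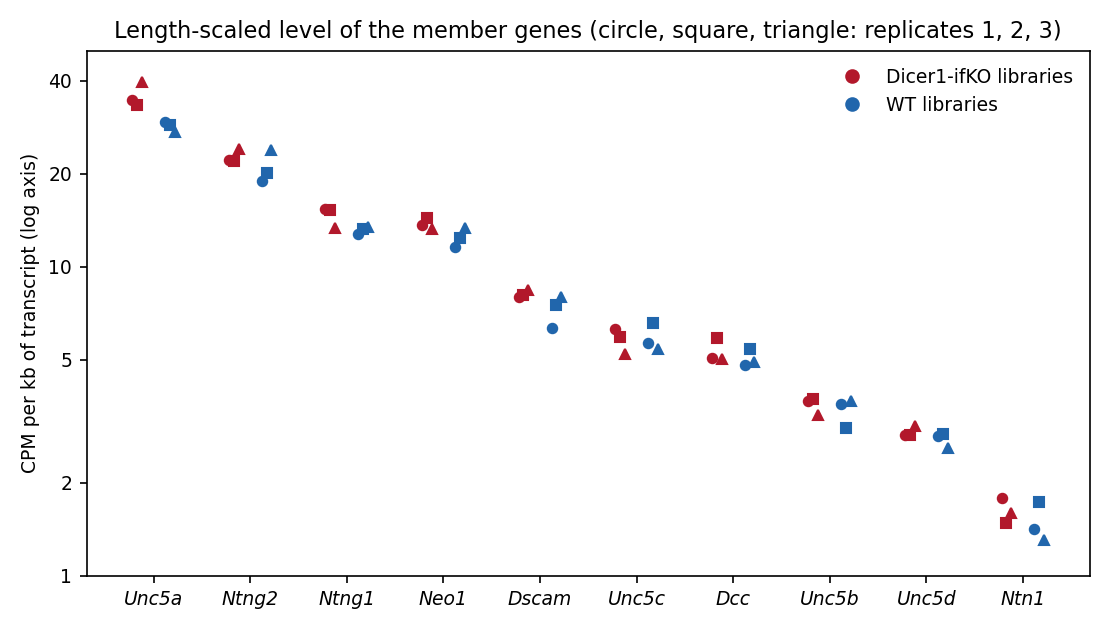
Length-scaled level (CPM per kb of transcript, log axis) of the 10 genes in Dicer1-ifKO libraries (red) and WT libraries (blue), each point 1 library, ordered by mean level. Unc5a lies highest, at 33.3 to 39.7 in Dicer1-ifKO and 27.2 to 29.5 in WT, and Ntn1 lowest, below 2 in all libraries.

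Between genotypes, 1 of the 10 genes passed the test. It was Unc5a, which was higher in Dicer1-ifKO, and the other 9 genes had smaller differences that did not pass. Over all 17405 genes tested, 0.161% were called in either direction, 0.126% as higher and 0.0345% as lower (edgeR's quasi-likelihood test, Benjamini-Hochberg adjusted p below 0.05). Of the 10 genes, 9 had a positive log2 fold change, against 49.0% of all genes tested, with a median of 0.12 against 0.00 for all genes. The 3 values of each genotype did not overlap in 1 of the 10 genes, Unc5a, against 16.1% of all genes tested in either direction and 7.99% with Dicer1-ifKO higher. Since the family was taken up for Unc5a, nothing is read from these counts. In bulk tissue, more or fewer cells of a type cannot be told apart from more or less RNA per cell.

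**Figure D2:**
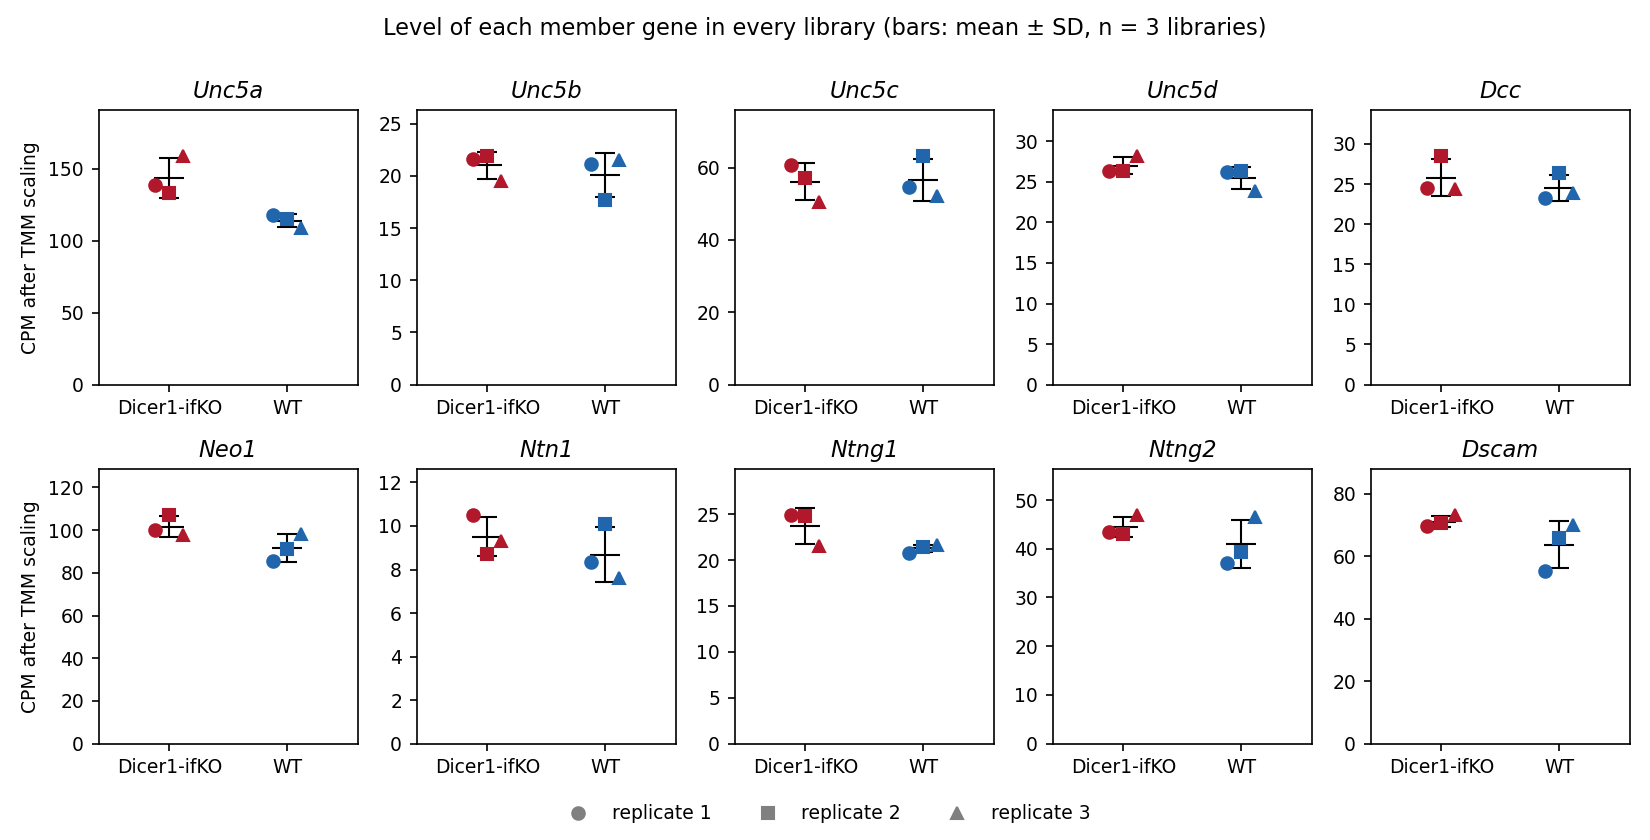
CPM of each gene in every library, with Dicer1-ifKO left (red) and WT right (blue); the bars give mean ± SD of 3 libraries, the marker shape gives the replicate number, and each panel has its own axis from 0. Only the Unc5a values of the 2 genotypes are separated, at 133 to 159 CPM in Dicer1-ifKO and 109 to 118 CPM in WT.

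Unc5a encodes a transmembrane receptor that mediates repulsion from netrin-1 and is known as a dependence receptor, which can trigger cell death when its ligand is absent. The gene lies on chromosome 13 (54949411 to 55006018, plus strand, GRCm38). Its counts were 2138, 2399 and 3248 in Dicer1-ifKO replicates 1, 2 and 3, against 1385, 1825 and 1770 in WT replicates 1, 2 and 3. After scaling these were 139, 133 and 159 CPM in Dicer1-ifKO and 118, 115 and 109 CPM in WT. Every Dicer1-ifKO library was above every WT library, and Dicer1-ifKO replicate 3 was the highest.

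The mean was 144 ± 13.4 CPM in Dicer1-ifKO and 114 ± 4.61 CPM in WT (SD, n = 3 each), a ratio of 1.26. On the log2 scale the difference was 0.34 (SE 0.06, 95% interval 0.21 to 0.46), and edgeR gave a Benjamini-Hochberg adjusted p of 0.0139. The call was lost in the same edgeR test when Dicer1-ifKO replicate 1 (log2 fold change 0.36, adjusted p 0.0901), Dicer1-ifKO replicate 3 (0.26, adjusted p 0.0644) or WT replicate 3 (0.30, adjusted p 0.116) was left out. It was also lost with counts summed over transcripts (0.33, adjusted p 0.234) and with a correction for transcript length and GC content plus a replicate term (0.29, adjusted p 0.0789).

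**Figure D3:**
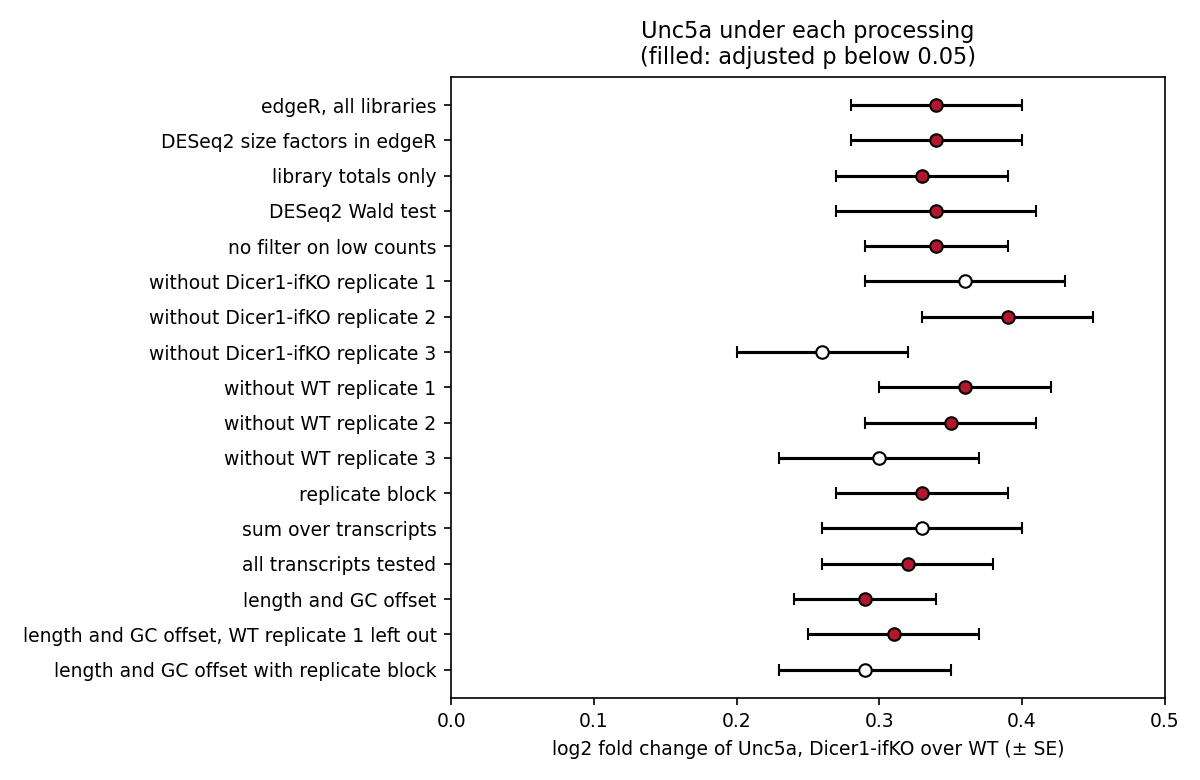
Log2 fold change of Unc5a (Dicer1-ifKO over WT, ± SE) under each processing, filled where the adjusted p was below 0.05. The value stayed between 0.26 and 0.39, and 5 of the 16 alternatives gave an adjusted p above 0.05.

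Besides the full-length Unc5a transcript the files hold 3 short ones, all in the 3′ part of the gene, that share reads with it. The first of them (54996539 to 54999785) had counts of 374, 463 and 614 in Dicer1-ifKO and 239, 392 and 322 in WT, with a log2 fold change of 0.29 (SE 0.09). The one from 55003010 to 55004653 had 0.34 (SE 0.08) and the one from 55003680 to 55005486, which runs into the 3′ untranslated region (UTR), had 0.32 (SE 0.08). In the test of all 60500 transcripts the full-length one passed, with a Benjamini-Hochberg adjusted p of 0.0406 in edgeR (0.32, SE 0.06), and the short ones did not (adjusted p 0.146 to 0.299, same test). Of all transcripts tested, 0.0777% were called. Unc5a shares 34 nt of exon with Hk3 on the opposite strand, 0.851% of its length.

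The 3′ UTR of Unc5a (1047 nt in GENCODE M21) was searched for 7-letter matches to bases 2 to 8, the seed, of 14 microRNAs of the brain. Mature microRNAs are made by Dicer and bind mRNAs mainly through this seed. Matches to 3 seeds were found, those of let-7c, miR-138 and miR-181a. They are shown because they are the letters through which these microRNAs could pair with the gene that passed the test. The mature microRNAs, from RefSeq (GRCm38.p6), read 5′ to 3′ with the seed in capitals:
mmu-let-7c-5p: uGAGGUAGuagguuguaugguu
mmu-miR-138-5p: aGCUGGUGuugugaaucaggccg
mmu-miR-181a-5p: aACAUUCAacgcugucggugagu

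The matching stretches of Unc5a, on the plus strand of GRCm38 and with the 7 letters complementary to the seed in capitals, are:
Unc5a for miR-138 (chr13:55004987-55005009): tcacgcctacactctCACCAGCt
Unc5a for let-7c (chr13:55005268-55005290): tgtatgtgtgtgatgCTACCTCt
Unc5a for miR-181a (chr13:55005970-55005992): ggattttagcggatgTGAATGTa

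The capitals begin at positions 31, 312 and 1014 of the UTR. The let-7 letters CTACCTC occur in 9.87% of the 13718 UTRs of tested genes, the miR-138 letters CACCAGC in 13.5% and the miR-181 letters TGAATGT in 16.9%. Among 2162 UTRs within 25% of the length of that of Unc5a the shares were 8.37%, 11.1% and 14.2%, and 20.4% held matches to at least 3 of the 14 seeds. The search read the sense strand of the UTR. A match is a description of sequence, and neither microRNA levels nor use of these letters was measured in the files.

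No difference between genotypes was detected in the other UNC5 genes. Unc5b, a receptor known for its role in vessels as well as in axon guidance (chromosome 10, 60762610 to 60831581), had 21.6, 21.9 and 19.5 CPM in Dicer1-ifKO and 21.1, 17.7 and 21.5 CPM in WT. The genotypes overlapped, with a log2 fold change of 0.06 (SE 0.09, 95% interval -0.12 to 0.25), and it was -0.03 without WT replicate 2. Unc5c, a repulsive netrin receptor known from cerebellar development (chromosome 3, 141465564 to 141834924), had 60.7, 57.2 and 50.5 CPM in Dicer1-ifKO and 54.6, 63.2 and 52.1 CPM in WT. Its log2 fold change of -0.02 (SE 0.07, 95% interval -0.17 to 0.14) was the only negative one among the 10 genes, and it was positive without Dicer1-ifKO replicate 3 (0.06), without WT replicate 2 (0.07) and with counts summed over transcripts (0.01). The 2 genotypes were interleaved.

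Unc5d, which binds FLRT2 in migrating cortical neurons (chromosome 8, 28646717 to 29219338), had 26.4, 26.4 and 28.2 CPM in Dicer1-ifKO and 26.2, 26.4 and 23.9 CPM in WT. The log2 fold change was 0.08 (SE 0.07, 95% interval -0.07 to 0.24). Adjusted p for Unc5b, Unc5c and Unc5d lay between 0.753 and 0.960 in the edgeR test.

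Within the UNC5 family Unc5a held the largest share in every library. Per kb, Unc5a made up 73.0%, 72.7% and 77.4% of the summed UNC5 level in Dicer1-ifKO replicates 1, 2 and 3, against 70.9%, 69.8% and 70.0% in WT replicates 1, 2 and 3. The counts of Unc5a were 2.29, 2.33 and 3.14 times those of Unc5c in Dicer1-ifKO, against 2.16, 1.82 and 2.09 times in WT. The genotypes did not overlap in either measure, but Dicer1-ifKO replicate 3 stood above the other Dicer1-ifKO libraries in both. The difference between the genes was not tested, because Unc5a was known to differ when the family was chosen.

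Neogenin, DCC and DSCAM transcripts did not pass the test. Neo1 encodes neogenin, a DCC relative that also binds repulsive guidance molecules (chromosome 9, 58874679 to 59036441). It had 100, 107 and 97.5 CPM in Dicer1-ifKO and 85.3, 91.2 and 98.2 CPM in WT, so that WT replicate 3 lay above 1 Dicer1-ifKO library. The log2 fold change was 0.14 (SE 0.06, 95% interval 0.03 to 0.26), with an unadjusted p of 0.0177 and an adjusted p of 0.349 in edgeR, and it was 0.09 with the correction for length and GC content. Dcc, the classical attractive netrin receptor (chromosome 18, 71258738 to 72351069), had 24.5, 28.5 and 24.4 CPM in Dicer1-ifKO and 23.3, 26.4 and 23.9 CPM in WT. Replicate 2 was the highest in both genotypes, and the log2 fold change was 0.07 (SE 0.08, 95% interval -0.10 to 0.24, adjusted p 0.814 in edgeR), or -0.01 without Dicer1-ifKO replicate 2.

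Dscam encodes a homophilic adhesion molecule that also acts as a netrin-1 receptor (chromosome 16, 96592079 to 97170752). It had 69.6, 70.6 and 73.2 CPM in Dicer1-ifKO and 55.4, 65.9 and 69.9 CPM in WT. WT replicate 1 was well below the other libraries, and WT replicate 3 lay above the lowest Dicer1-ifKO library. The log2 fold change was 0.15 (SE 0.07, 95% interval 0.01 to 0.29, unadjusted p 0.0318, adjusted p 0.416 in edgeR), and it was 0.07 without WT replicate 1 and 0.09 with the correction for length and GC content. Unadjusted p was below 0.05 with a higher value in Dicer1-ifKO for 3 of the 10 genes (Unc5a, Neo1 and Dscam), against 5.63% of all genes tested, or 10.4% in either direction. With the correction for length and GC content, edgeR gave an unadjusted p of 0.0766 for Neo1, 0.145 for Dscam and 0.0393 for Ntng1. Which genes were counted thus depended on the processing. Since the family was taken up for Unc5a, nothing is read from this count.

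**Figure D4:**
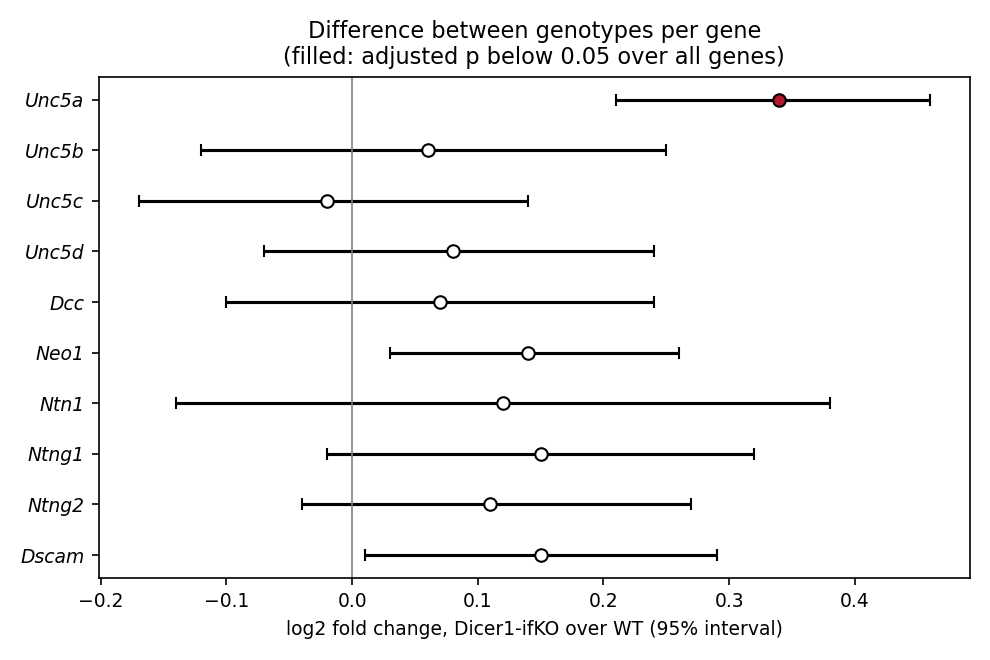
Log2 fold change of each gene (Dicer1-ifKO over WT) with its 95% interval from the edgeR fit, filled where the adjusted p over all genes was below 0.05. Unc5a stands at 0.34 with an interval of 0.21 to 0.46, and the other genes lie between -0.02 and 0.15.

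The netrin genes did not pass the test either. Ntn1, the secreted netrin-1 gene (chromosome 11, 68209364 to 68400823), had counts of 162, 157 and 191 in Dicer1-ifKO and 98, 161 and 124 in WT. These were 10.5, 8.72 and 9.33 CPM in Dicer1-ifKO and 8.34, 10.1 and 7.63 CPM in WT, with WT replicate 2 above 2 Dicer1-ifKO libraries. Its log2 fold change of 0.12 had the widest interval of the 10 genes (SE 0.12, 95% interval -0.14 to 0.38), and ranged from 0.02 without WT replicate 3 to 0.26 without WT replicate 2.

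Ntng1, the gene of netrin-G1 (chromosome 3, 109782682 to 110135508), had 24.9, 24.8 and 21.5 CPM in Dicer1-ifKO and 20.8, 21.4 and 21.6 CPM in WT. The log2 fold change was 0.15 (SE 0.08, 95% interval -0.02 to 0.32, adjusted p 0.541 in edgeR), and Dicer1-ifKO replicate 3 was at the level of WT. This transcript ends at the stop codon. Its closest rival for the highest mean count (327.5 against 367.5) was a 3′ end transcript (109780040 to 109782911), with counts of 313, 355 and 413 in Dicer1-ifKO and 250, 338 and 296 in WT. That transcript had a log2 fold change of -0.02 (SE 0.09), against 0.14 (SE 0.08) for the coding one in the same test of transcripts, so the sign at Ntng1 depended on which transcript stood for the gene.

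Ntng2, the gene of netrin-G2 (chromosome 2, 29194541 to 29248125), had 43.4, 43.1 and 46.9 CPM in Dicer1-ifKO and 37.0, 39.3 and 46.6 CPM in WT. WT replicate 3 lay among the Dicer1-ifKO libraries, and the log2 fold change was 0.11 (SE 0.07, 95% interval -0.04 to 0.27, adjusted p 0.649 in edgeR). It was 0.05 without WT replicate 1 and 0.22 without WT replicate 3. Its 9 transcripts all had positive values, 0.05 to 0.18, but share reads. The representative, annotated as a target of nonsense-mediated decay, had 0.10 (SE 0.08) in the test of transcripts. The coding transcripts had 0.08 to 0.14 (SE 0.08 each) there. The representative overlaps the same-strand gene 6530402F18Rik over 298 nt, 15.2% of its exons, whose reads cannot be assigned.

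Over the 10 genes the files hold 35 transcripts, of which 33 were tested. The full-length Unc5a transcript was the only one called, and 0.0595% of all transcripts tested were called as higher. Dcc had a transcript with retained intron (71951906 to 72351041) at -0.05 (SE 0.14), beside 0.06 (SE 0.08) for its representative. The 2 long Ntn1 transcripts had nearly the same counts and log2 fold changes of 0.10 and 0.11 (SE 0.13 each).

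Seed matches were also counted in the other genes. For 8 genes the GENCODE transcript matched to the representative has an annotated 3′ UTR. In that UTR 7 of the 8 held the miR-138 letters CACCAGC, in Dscam only beyond the end of the counted transcript. Neo1 did not hold them, and each of the other 13 seeds was matched in 0 to 5 genes. With the longest annotated UTR, which adds Dcc and Ntng1, the miR-138 letters were in 8 of 10, Dcc being added. These UTRs range from 765 nt in Ntng2 to 6352 nt in Unc5c, against a median of 1077 nt over all UTRs searched. The share of UTRs within 25% of the same length that hold CACCAGC was 8.95% for Ntng2, 11.1% for Unc5a, 19.3% for Dscam, 22.9% for Unc5b, 31.2% for Ntn1, 37.1% for Unc5d and 38.6% for Unc5c. For Neo1, without a match, it was 22.4%. Added over these 8 genes the shares come to 1.92 genes, beside the 7 with a match. The miR-138 seed was singled out after all 14 had been counted. The stretches are shown because it is the seed most of the genes have in common, and the letters matching it are in capitals, 5′ to 3′ on the strand of the gene (GRCm38):
Unc5b (chr10:60765048-60765070, minus strand): ccctcagaccaccacCACCAGCc
Unc5c first match (chr3:141833706-141833728, plus strand): atacaatcagctgtcCACCAGCc
Unc5c second match (chr3:141833732-141833754, plus strand): ttatttgctatggtaCACCAGCt
Unc5d (chr8:28652201-28652223, minus strand): aatctgagtacatgaCACCAGCa
Ntn1 (chr11:68211293-68211315, minus strand): acgtgcccaaggtcaCACCAGCa
Dscam (chr16:96591444-96591466, minus strand): tgtccccatgaagtcCACCAGCa

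The Dscam stretch lies in the GENCODE transcript, beyond the 3′ end of the Dscam transcript in the files. The Ntng2 match lies in a transcript annotated as a target of nonsense-mediated decay, after its stop codon. That match is beyond the 3′ ends of the coding Ntng2 transcripts that were counted. Of the genes that carry these letters only Unc5a, for which the family was taken up, passed the test of genotype. The log2 fold changes of the other 6 with a match in the matched GENCODE UTR ran from -0.02 for Unc5c to 0.15 for Dscam. Dcc, with a match in its longest UTR, had 0.07. Neo1 and Ntng1, with no match, had 0.14 and 0.15. The part of these letters in the differences was not tested.

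Other genes of the pathway were described in 3 lists. Of 12 genes listed as other netrins, receptor ligands or their relatives, 0 passed the edgeR test (0.161% of all genes tested). An unadjusted p below 0.05 in that test was found for 0 of them (10.4% of all genes tested). Among the 12, 9 were positive (49.0% of all genes tested), with a median log2 fold change of 0.07. Cbln1, a secreted synaptic organiser listed beside its relatives Cbln2 and Cbln4, had only 32 to 76 counts per library. Its level was 2.86, 4.22 and 3.03 CPM in Dicer1-ifKO and 2.72, 2.90 and 2.09 CPM in WT. The log2 fold change was 0.40, with a wide error (SE 0.21). Rgma, a neogenin ligand, had 0.13 (SE 0.08), Ntn5, a netrin relative, 0.16 (SE 0.10) and Flrt1, of the FLRT family that binds UNC5 receptors, 0.16 (SE 0.11).

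The second list held 7 genes, partners of netrin-G and FLRT proteins together with relatives such as Dscaml1, which is no such partner. All 7 had a positive log2 fold change (49.0% of all genes tested), with a median of 0.12. None passed in edgeR (0.161% of all genes tested), and 4 had an unadjusted p below 0.05 there with a higher value in Dicer1-ifKO (5.63% of all genes tested). These 4 included Dscaml1. Lphn1 passed in DESeq2 (log2 fold change 0.17, adjusted p 0.0222). Lphn1, a latrophilin, a synaptic adhesion receptor, had 449, 435 and 438 CPM in Dicer1-ifKO and 377, 399 and 403 CPM in WT. The genotypes did not overlap in this 1 of the 7 genes, against 7.99% of all genes tested with Dicer1-ifKO higher. The difference of Lphn1 was 0.16 on the log2 scale (SE 0.04), which edgeR gave an adjusted p of 0.160. Its relatives Lphn2 and Lphn3 had 0.20 (SE 0.07) and 0.16 (SE 0.06), and Dscaml1, the paralog of Dscam, 0.12 (SE 0.05). The netrin-G partners themselves, Lrrc4c (NGL-1) and Lrrc4 (NGL-2), had 0.07 (SE 0.05) and 0.09 (SE 0.05). Lphn1, Lphn2 and Dscaml1 were lowest in WT replicate 1 (377, 48.6 and 84.1 CPM), and Lphn3 in WT replicate 2 (70.9 CPM). The part of WT replicate 1 and of transcript length in the signs of this list was not tested.

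Of 31 effectors that act inside the cell downstream of DCC and UNC5, 0 passed in edgeR (0.161% of all genes tested). In the same test 2 had an unadjusted p below 0.05, both lower in Dicer1-ifKO, against 10.4% of all genes tested in either direction. The list was split, with 16 positive (49.0% of all genes tested), and its median was 0.00. Tubb3, a neuronal tubulin that binds DCC and UNC5 receptors, had -0.15 (SE 0.05) and Nck1, an adaptor that binds the tail of DCC, -0.23 (SE 0.09). Rac1, a small GTPase activated by netrin-1, had -0.10 (SE 0.05) and Wasl, an actin-nucleation promoter, -0.10 (SE 0.05).

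**Figure D5:**
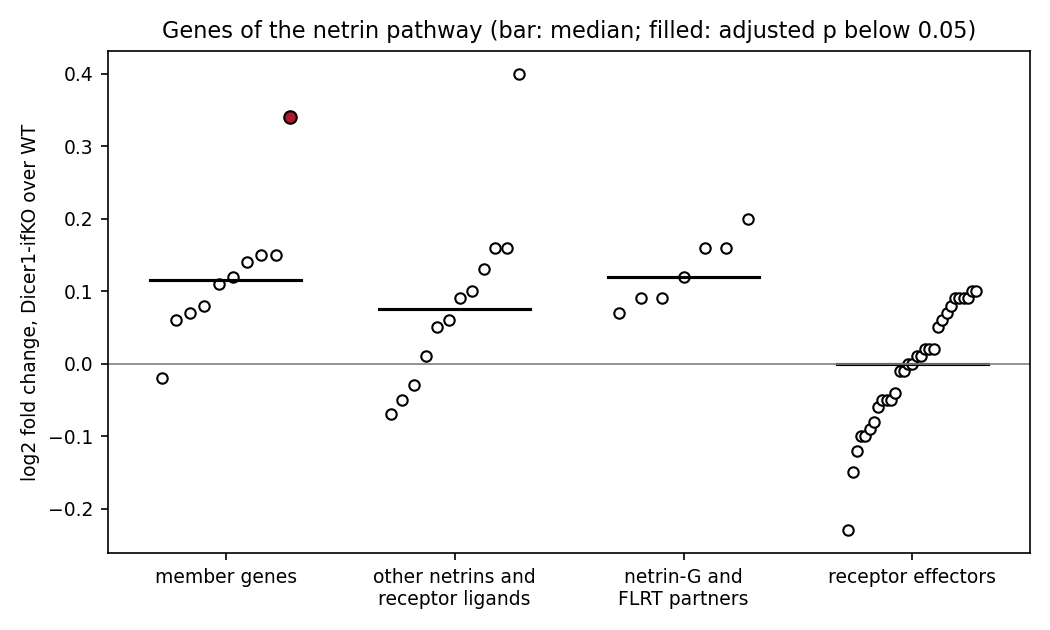
Log2 fold change (Dicer1-ifKO over WT) of the 10 genes and of 3 lists of other pathway genes, each point 1 gene, with the median as a bar and genes at an adjusted p below 0.05 filled. Unc5a is the only filled point, and medians are 0.12, 0.07, 0.12 and 0.00 in the order drawn.

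Markers of cell types and of neighbouring tissue were read beside these values, and all list genes had counts. The summed level of 12 thalamus and striatum markers was 187 to 198 CPM in Dicer1-ifKO and 176 to 183 CPM in WT, with a positive log2 fold change in 7 of 12 and a median of 0.06. Summed astrocyte markers were 3511 to 3661 CPM in Dicer1-ifKO and 3296 to 3481 CPM in WT (4 of 8 positive, median -0.01). Summed pyramidal neuron markers were 5078 to 5424 CPM in Dicer1-ifKO and 4936 to 5032 CPM in WT (6 of 10 positive, median 0.00). In each of these 3 lists the separation of the genotypes came with a single abundant gene, found after the values were seen. Without Pde10a, the other 11 thalamus and striatum markers summed to 103 to 119 CPM in Dicer1-ifKO and 97.7 to 114 CPM in WT. Without Slc1a2, a glutamate transporter, the other 7 astrocyte markers summed to 1442 to 1460 CPM in Dicer1-ifKO and 1452 to 1496 CPM in WT. Without Camk2a, the other 9 pyramidal neuron markers summed to 1582 to 1711 CPM in Dicer1-ifKO and 1618 to 1691 CPM in WT, so all 3 remaining sums overlapped. Endothelial markers overlapped, at 192 to 199 CPM in Dicer1-ifKO and 177 to 200 CPM in WT, as did inhibitory neuron markers, at 931 to 990 CPM in Dicer1-ifKO and 920 to 988 CPM in WT. So did oligodendrocyte markers (3962 to 4570 CPM in Dicer1-ifKO, 3823 to 4694 CPM in WT), microglia markers (321 to 329 CPM in Dicer1-ifKO, 322 to 347 CPM in WT) and choroid plexus markers (25.3 to 39.8 CPM in Dicer1-ifKO, 33.3 to 46.4 CPM in WT). Dentate granule cell markers also overlapped, at 971 to 1035 CPM in Dicer1-ifKO and 996 to 1076 CPM in WT, and held the one marker that passed the edgeR test, Calb1, a calcium-binding protein, which was lower. The part of these markers in the netrin and receptor values was not tested.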

How the data were processed

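Hippocampal mRNA of 3 Dicer1-ifKO and 3 WT libraries (stranded mRNA kit, per the labels' protocols) was read from the authors' deposited raw counts, which are whole reads per transcript for 76938 transcripts. Reads in shared exons appear in each transcript, so 1 transcript stood for each symbol. The deposited normalised counts (signal, the count divided by 1 factor per library, 0.720 to 1.28) were not tested. The submitters' processing notes name SAMtools 0.1.18, TopHat2 2.0.6, Bowtie2 2.0.5, DESeq2 and CASAVA 1.8.2, and the builds mm10 and GRCm38. The read counter, the annotation release and whether strand was used: not given in the sources used here.

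Genotypes were compared with the quasi-likelihood test of edgeR 4.0.16 under R 4.3.3 (TMM scaling, filterByExpr with a minimum count of 10, Benjamini-Hochberg over 17405 genes, threshold 0.05). SE came from the log2 fold change and F, and intervals are 95%. Levels per kb used lengths of GENCODE M21, in which 84.2% of transcripts had identical coordinates; other transcripts took the nearest of the same symbol, with ends differing by at most 5000 nt in sum, for 6 of the 10 genes by 8 to 1239 nt. UTRs of at least 50 nt came from the same release. The seed search covered 14 of 15 chosen microRNAs, miR-124 having no entry in the RefSeq table used. DESeq2 1.42.0, other scalings, no filter, libraries left out, a replicate term, sums over transcripts and an offset for length and GC content were alternatives.

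The members and lists were chosen with earlier results of these data known. Named were all members, in each pathway list the 4 genes with the smallest p and every called gene, and the 5 genes most correlated with Unc5a; Lrrc4 and Lrrc4c were added after their values were seen. A count of 3 equals 0.146 to 0.255 CPM. Libraries of 1 genotype differed by more than sampling noise (chi-square over its degrees of freedom 1.72 to 4.17), so each library counted as 1 replicate. The edgeR step was tested on simulated data.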

Additional observations from a re-analysis of the deposited data

How the results depend on the processing

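The log2 fold change of Unc5a was positive in all 16 alternatives (0.26 to 0.39) and its adjusted p ranged from 1.51e-05 without a filter on low counts to 0.234. With one library left out the value was 0.26 to 0.39, and 0 or 1 of the 10 genes was called; 0 were called with counts summed over transcripts (0.33) and with the length and GC offset plus the replicate block (0.29). With the offset alone Unc5a had 0.29 (adjusted p 0.0166, edgeR). Signs turned for Unc5b (-0.03 without WT replicate 2; leave-one-out range -0.03 to 0.12), Unc5c (-0.08 to 0.07 over left-out libraries, and 0.01 with summed transcripts) and Dcc (-0.01 to 0.13 over left-out libraries). The other 6 genes kept their sign in these 16 alternatives and passed in none; for Ntng1 the 3′ end transcript, which was not among them, had -0.02.

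Genes called over the whole table numbered 28, against 74 in DESeq2, 151 without a filter and 7 with summed transcripts. They numbered 17 with offset and replicate block, and 6 to 105 with 1 library left out. With every transcript tested, 47 of 60500 transcripts were called, which is not a number of genes. Other pathway genes called were 1 in DESeq2, Lphn1, and 0 in each of the other alternatives. Member transcripts called were 2 without a filter (the second being the 3′ one from 55003680), 0 with the replicate block and 0 to 1 with one library left out.

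Same-numbered libraries did not deviate together (correlations -0.07, 0.03 and -0.09 for replicates 1, 2 and 3), so no pairing by number was seen. With deviations taken within 3 libraries per genotype, these correlations cannot exclude a step shared by number. With the replicate block Unc5a had 0.33 (adjusted p 0.0390, edgeR), 22 genes were called, and not every library correlated best with its own number. Depth limits Ntn1 most, at 98 to 191 counts per library. Seed matches over the members numbered 40 in representative and 54 in longest UTRs.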

Other observations

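Among 15469 other genes averaging a log2 CPM of 1 or more, those whose levels over the 6 libraries ran closest to Unc5a were Ddx41 (Pearson's r 0.992), Pitpnm1 (0.989), Cd164 (0.983), Baat1 (0.982) and Mxi1 (0.978). These are descriptions over 6 points that share library and depth. None of these 5 genes passed the test between genotypes, their log2 fold changes being 0.07 to 0.20. Within the family Unc5d ran closest to Unc5a (r 0.82), and r of the other 8 genes was -0.23 to 0.50.

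Dcc and Neo1, the gene of its relative neogenin, were also set against each other. The length-scaled level of Dcc was 0.372, 0.407 and 0.381 times that of Neo1 in Dicer1-ifKO replicates 1, 2 and 3, against 0.416, 0.439 and 0.370 times in WT replicates 1, 2 and 3, so the balance of these related receptors overlapped between genotypes.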
